A study of Mus musculus with 2 samples.

Results

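The Hox genes encode homeodomain transcription factors that give cells their position along the body axis, and mice carry them in 4 clusters, HoxA to HoxD. The data considered here are the regions bound by ELF3 or NFKB2 in these clusters, chosen as every deposited region overlapping HoxA on chromosome 6 (52110001 to 52270000), HoxB on chromosome 11 (96080001 to 96280000), HoxC on chromosome 15 (102810001 to 102965000) or HoxD on chromosome 2 (74480001 to 74615000). They numbered 93 of 82536 regions in all, 63 of 68319 for ELF3 and 30 of 14217 for NFKB2. Both libraries were CUT&RUN, which cuts out DNA next to an antibody-bound protein, from wild type primary mouse renal tubular epithelial cells under TNFα + IFNγ, in batch 1. No untreated cells were part of the comparison, and the labels used here give no dose, time, age or number of animals. An IgG list was not analysed here. Each antibody had 1 library, so the values have no replicate error and no p-value was computed. Ranges in parentheses after a value are 95% intervals for counting error only, unless they are said to be something else.

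ELF3 belongs to the ETS family of transcription factors, is restricted to epithelia and recognises sequences around a GGAA core. NFKB2 is the p100 precursor that is processed to the p52 subunit in non-canonical NF-κB signalling. In each Hox cluster the low-numbered, anterior genes are expressed towards the head and the high-numbered, posterior genes towards the tail, and Polycomb proteins keep unused parts of a cluster silent. In the kidney, Hoxa11, Hoxc11 and Hoxd11 act in the mesenchyme that forms nephrons, and Hoxb7 is expressed in the ureteric bud and its collecting ducts. The windows are those of GRCm39, the assembly whose sequence names the files use. An annotation of GRCm39 was not used here, so no region was assigned to a gene and neither the windows nor the cell type could be checked against gene positions. All 38 listed Hox genes were found in a RefSeq gene table of GRCm38.p6, which served for gene order alone, taken to be the same in both assemblies. HoxA runs from Hoxa2 at lower to Hoxa13 at higher coordinates (10 listed genes). The other clusters run the opposite way, from Hoxb1 to Hoxb13 (10), Hoxc4 to Hoxc13 (9) and Hoxd1 to Hoxd13 (9). Sorted by the start coordinate of the gene models, 1 pair of neighbours fell out of number order in HoxB and in HoxD. Gene models can overlap, so this does not show that the genes themselves are out of order.

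Promoter sequences of RefSeq (GRCm38.p6, 250 bases before to 50 after the start) were matched for 22 of the 38 genes. These were 9 genes of HoxA, 9 of HoxD, 3 of HoxB and 1 of HoxC, so the shares below mainly describe HoxA and HoxD. The promoter sequences are shown for the letters that each factor is known to favour and are not linked to any region. The 6 letters AGGAAG, a form of the ETS core, occurred on either strand in promoters of 6 of the 22 genes (27.3%, 10.7 to 50.2), against 38.2% of 26794 genes with a promoter sequence. The longer ETS form CCGGAAGT occurred in 0 of 22 (upper limit 15.4%; 4.34% of all genes), and so did the κB consensus (0 of 22; 5.17% of all genes). Both ETS forms were searched on either strand and cannot match the same core, since the letter before GGAAG differs. The genes with AGGAAG were Hoxa3, Hoxa9, Hoxa10, Hoxa11, Hoxb1 and Hoxc4. Hoxa9 held it 2 times, 86 and 39 bases before the start, Hoxc4 held it 3 times and Hoxa11, one of the kidney genes named above, held it once, 164 bases before the start. Of the other kidney genes named, a promoter was matched for Hoxd11 alone, and it held none. These 3 promoters are printed 5′ to 3′ on the strand of the gene, with each match on either strand in capitals.
Hoxa9: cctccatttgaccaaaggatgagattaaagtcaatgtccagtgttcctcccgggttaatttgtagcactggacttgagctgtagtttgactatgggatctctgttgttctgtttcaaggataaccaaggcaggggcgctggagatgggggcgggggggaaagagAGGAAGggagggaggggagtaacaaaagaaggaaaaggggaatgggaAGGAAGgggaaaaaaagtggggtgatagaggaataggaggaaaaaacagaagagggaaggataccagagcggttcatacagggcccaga
Hoxa11: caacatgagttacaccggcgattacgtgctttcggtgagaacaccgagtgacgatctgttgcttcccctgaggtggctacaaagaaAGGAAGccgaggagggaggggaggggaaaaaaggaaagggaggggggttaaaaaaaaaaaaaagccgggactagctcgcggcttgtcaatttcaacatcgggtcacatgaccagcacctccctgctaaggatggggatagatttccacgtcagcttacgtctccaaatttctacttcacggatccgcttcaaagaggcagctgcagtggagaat
Hoxc4: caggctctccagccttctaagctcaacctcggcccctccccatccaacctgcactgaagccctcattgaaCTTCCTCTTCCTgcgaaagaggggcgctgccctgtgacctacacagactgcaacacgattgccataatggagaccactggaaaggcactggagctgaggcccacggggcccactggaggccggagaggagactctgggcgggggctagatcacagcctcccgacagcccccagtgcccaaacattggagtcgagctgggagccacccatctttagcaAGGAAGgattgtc

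ELF3 regions were dense in all 4 clusters. HoxA held 18 ELF3 regions (11.2 per 100 kb, 6.67 to 17.8), HoxB 21 (10.5, 6.50 to 16.1), HoxC 13 (8.39, 4.47 to 14.3) and HoxD 11 (8.15, 4.07 to 14.6). The intervals of the clusters overlapped, which alone does not decide whether their ELF3 densities differ, and a difference was not tested. Over the 4 clusters ELF3 had 9.69 regions per 100 kb (7.45 to 12.4), against 2.66 over autosomes and X, an average that takes in all sequence between the first and last region of each chromosome whatever its gene content. NFKB2 regions were fewer, with 14 in HoxB (7.0 per 100 kb, 3.83 to 11.7), 7 in HoxC (4.52, 1.82 to 9.30), 6 in HoxA (3.75, 1.38 to 8.16) and 3 in HoxD (2.22, 0.458 to 6.49). These intervals overlapped too, and a difference in NFKB2 density between clusters was not tested either. The NFKB2 density over the 4 clusters was 4.62 per 100 kb (3.11 to 6.59), against 0.553 over autosomes and X.

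Measured by length, the clusters stood further above the rest than by number. ELF3 regions covered 31.2% of HoxB, 21.9% of HoxA, 15.7% of HoxD and 10.6% of HoxC, against 1.83% of autosomes and X. NFKB2 regions covered 12% of HoxB, 3.23% of HoxC, 1.96% of HoxA and 1.48% of HoxD, against 0.282%. HoxB thus had the most cover for both factors. The order of HoxA and HoxD depended on the listing limit. At −log10 q of 5 or more, ELF3 covered 13.9% of HoxA and 15.4% of HoxD, and NFKB2 0.488% and 0.873%. At 10 or more, ELF3 covered 12.2% of HoxA and 7.32% of HoxD, so HoxA again came first. No NFKB2 region remained in either of them at that limit. In bins of 5 kb, an ELF3 region was present in 18 of 32 bins of HoxA (56.2%), 22 of 40 of HoxB (55%), 12 of 27 of HoxD (44.4%) and 11 of 31 of HoxC (35.5%), against 13.5% of bins over autosomes and X. For NFKB2 the numbers were 16 of 40 in HoxB, 7 of 31 in HoxC, 6 of 32 in HoxA and 3 of 27 in HoxD, against 2.89%. The bins with ELF3 formed an unbroken run of 90 kb in HoxB, 80 kb in HoxA, 50 kb in HoxD and 35 kb in HoxC, and NFKB2 had a run of 60 kb in HoxB but of at most 15 kb in the other clusters.

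**Figure D1:**
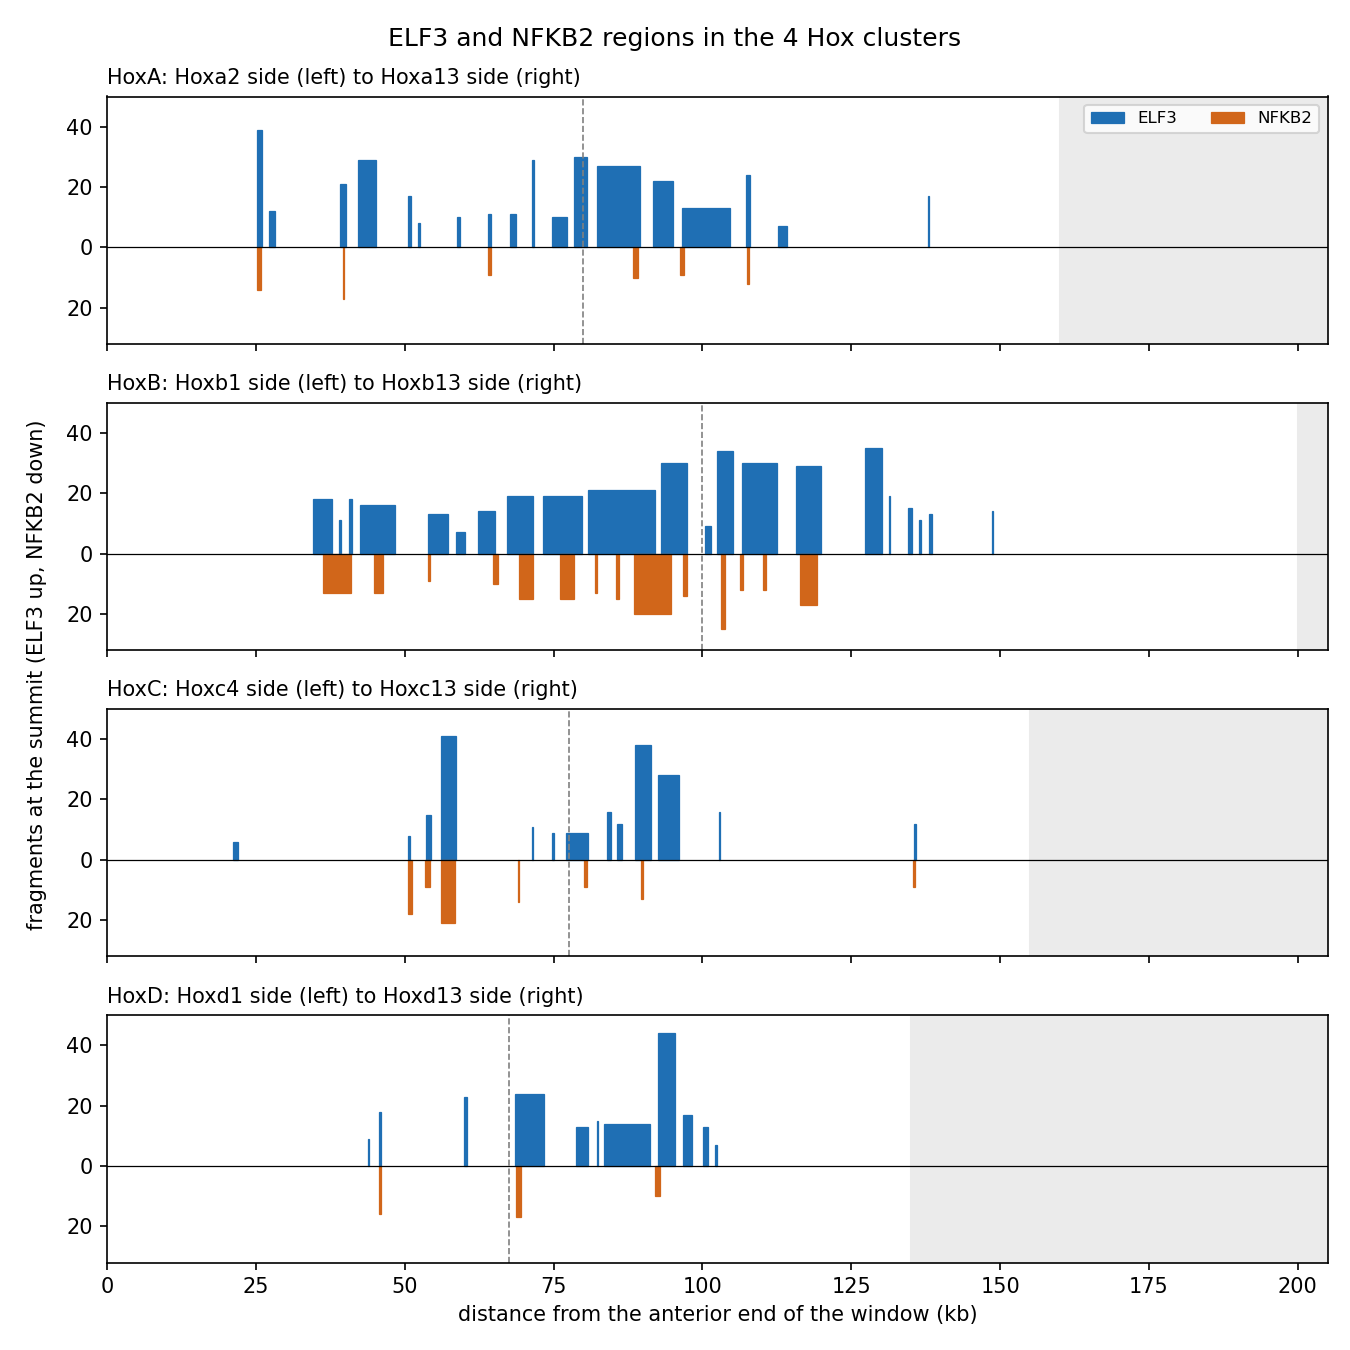
Regions in each cluster, by distance in kb from the anterior end of the window (left) to the posterior end; each bar spans a region and its height is the number of fragments at its summit, ELF3 upwards and NFKB2 downwards, with the midpoint dashed and grey beyond the window. ELF3 regions leave both ends of each window empty and reach at most 44 fragments. The longest gaps between them are in HoxC (32.7 kb) and HoxA (23.7 kb), and 14 of the 30 NFKB2 regions lie in HoxB.

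Hox regions were wide for their signal. The median ELF3 region in the clusters measured 1035 bp, against 418 bp over autosomes and X, and the median NFKB2 region 619 bp against 329 bp. Of the 63 ELF3 regions 26 were 2 kb or wider (41.3%), against 4.82% over autosomes and X, and of the 30 NFKB2 regions 6 were (20%), against 1.78%. By cluster, 12 of 21 ELF3 regions in HoxB, 6 of 18 in HoxA, 4 of 13 in HoxC and 4 of 11 in HoxD reached that width. Of the 6 wide NFKB2 regions 5 lay in HoxB and 1 in HoxC. Without HoxB the NFKB2 share fell to 6.25%, while the ELF3 share was 33.3%. The widest regions were an ELF3 region of 11245 bp in HoxB (96187948 to 96199192), which was wider than all but 0.0278% of ELF3 regions, and an NFKB2 region of 6106 bp in HoxB (96185360 to 96191465). In the other clusters the widest ELF3 regions measured 8033 bp (HoxA, 52206619 to 52214651, with a background of 2.43 times the lowest level of the library), 7653 bp (HoxD, 74523858 to 74531510) and 3591 bp (HoxC, 102884284 to 102887874, also at 2.43 times that level). This HoxC region had 9 fragments and the lowest −log10 q of the Hox ELF3 regions, 1.03. The widest NFKB2 regions there measured 817, 913 and 2333 bp, in the same order.

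**Figure D2:**
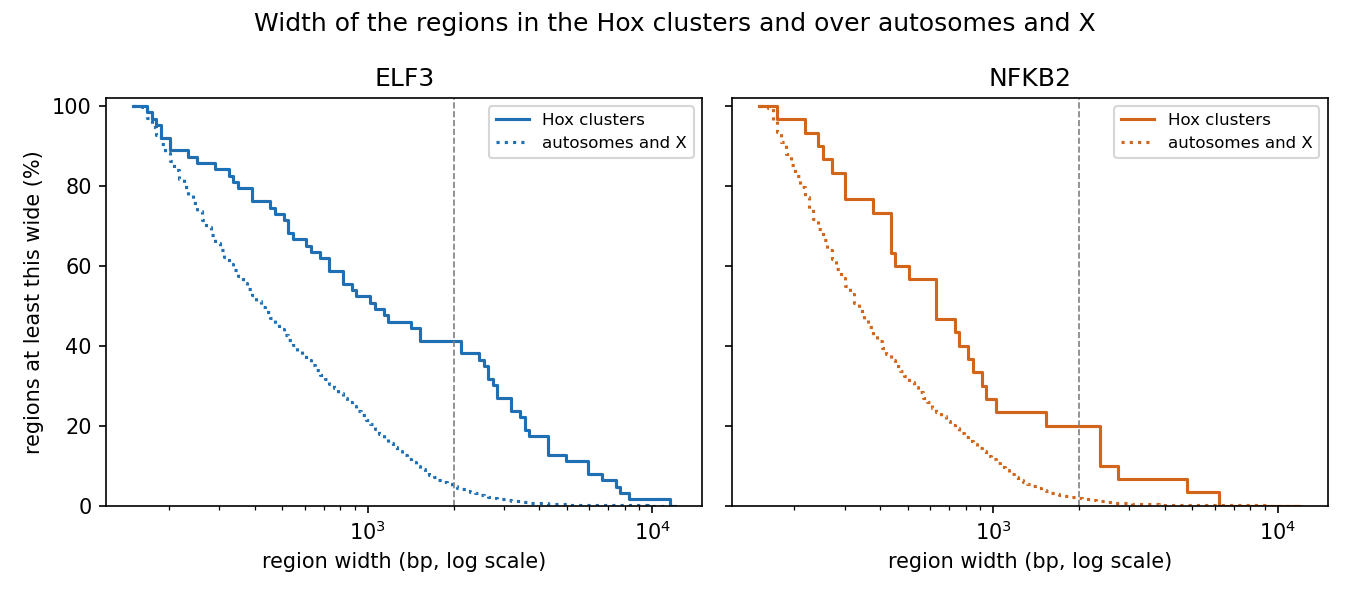
Share of regions (%) at least as wide as the value on the log axis (bp), for the Hox clusters (solid, 63 ELF3 and 30 NFKB2 regions) and for autosomes and X (dotted), with 2 kb dashed. At 2 kb the curves stand at 41.3% and 4.82% for ELF3 and at 20% and 1.78% for NFKB2.

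Summits in the clusters were low by comparison. The fragments at a summit were recovered from the deposited fold and p-value of the peak caller. They had a median of 16 for Hox ELF3 regions (lowest 6, highest 44), against 22 for all, and of 13 for Hox NFKB2 regions (lowest 9, highest 25), against 16. None of the 63 ELF3 and none of the 30 NFKB2 regions was among the highest 10% of its list by fragments, whereas 28 ELF3 and 7 NFKB2 regions were among the widest 10%. Within classes of fragments the difference in width was also seen. At 16 to 30 fragments, the 26 Hox ELF3 regions had a median width of 2574 bp and all 24891 ELF3 regions one of 347 bp. At 6 to 15 fragments the medians were 714 bp (31 regions) and 281 bp, and at 31 or more 2592 bp (6 regions) and 676 bp.

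The local background that the caller set against the summit was at its lowest level in the library, here called the floor, for most Hox regions. It was above the floor at 23 of 63 ELF3 regions (36.5%), against 29.2% of all, and at 10 of 30 NFKB2 regions (33.3%), against 29.6%. The highest values were 2.43 times the floor for ELF3 and 3.05 times for NFKB2. Raised background was most frequent in HoxC, at 7 of 13 ELF3 regions, and in HoxA it was found at 7 of 18. With regions at the floor alone, ELF3 covered 10.4% of the 4 clusters, against 1.27% of autosomes and X, and NFKB2 3.59% against 0.187%. ELF3 cover then was 20.4% in HoxB, 10.2% in HoxD, 5.64% in HoxA and 2.72% in HoxC, so HoxD came before HoxA.

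In HoxA, ELF3 regions followed each other from 52135120 to 52224173, and a gap of 23.7 kb, the longest in the cluster, separated them from a last, narrow region of 179 bp with 17 fragments near the Hoxa13 end (52247868 to 52248046). The strongest ELF3 region was also the most anterior one, with 39 fragments (27.7 to 53.3) at 52135120 to 52135973. The next, with 30 fragments, was 2067 bp wide (52188484 to 52190550) and reached across the midpoint of the window, over a background of 2.43 times the floor. The strongest NFKB2 regions, with 17 fragments at 52149681 to 52149849 and 14 at 52135240 to 52135851, both lay on the anterior side. The remaining NFKB2 regions of HoxA had 9 to 12 fragments.

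In HoxB, 12 of 20 gaps between neighbouring ELF3 regions were shorter than 2 kb, and the median gap was 1424 bp. ELF3 was strongest posterior to the midpoint, with 35 fragments at 96149912 to 96152645 and 34 at 96174889 to 96177490. The first of these had no NFKB2 region, whereas the second held the strongest NFKB2 region of the clusters, with 25 fragments (16.2 to 36.9) at 96176144 to 96176897. NFKB2 had 20 fragments at its widest region, which touched 2 ELF3 regions. The ELF3 regions lay between 96131136 and 96245382, leaving 51.1 kb without one at the Hoxb13 end and 34.6 kb at the Hoxb1 end.

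HoxC had its strongest regions on either side of the midpoint. ELF3 had 41 fragments at 102906460 to 102908842, on the anterior side, and 38 at 102873719 to 102876301, on the posterior side. The background of the second was 2.43 times the floor. NFKB2 had 21 fragments in the first and 18 at 102913841 to 102914458, both anterior. The longest gap between ELF3 regions, 32.7 kb, lay towards the Hoxc13 end, between 102829420 and 102862121. In HoxD, the strongest ELF3 region of all clusters held 44 fragments (32.0 to 59.1) at 74519635 to 74522459, on the Hoxd13 side. The next held 24 at 74541603 to 74546421, also posterior. NFKB2 had 17 fragments at 74545470 to 74546382, within that second region, and 16 at 74569069 to 74569334, on the anterior side.

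The windows were then split at their midpoints into an anterior and a posterior side, with each region placed by its summit. These sides are parts of the windows, not of the gene span, and their cover includes the empty window ends. Without ELF3 regions were the outer 34.6 kb (anterior) and 51.1 kb (posterior) of the 100 kb sides of HoxB. For the 67.5 kb sides of HoxD it was 43.8 kb and 32.5 kb. The clusters differed in which side of the window had more ELF3 cover. In HoxB, ELF3 covered 44.1% of the anterior and 18.3% of the posterior side, although the numbers of regions were alike (11 and 10). In HoxD the order was the opposite, with 1.33% of the anterior side (3 regions) and 30.1% of the posterior side (8 regions). The anterior side of HoxD was the only one of the 8 sides with less ELF3 cover than the 1.83% of autosomes and X. By number it was not lower, with 4.44 regions per 100 kb (0.917 to 13.0) against 2.66. Its 3 regions were narrow, at 163 to 503 bp. HoxA had 12 anterior and 6 posterior regions but more cover posteriorly, 16.7% against 27.0%, since the posterior regions were wider (median 2464 bp against 944.5 bp). HoxC had 6.73% and 14.5%, with 6 and 7 regions. The directions in HoxA and HoxC were not stable: the difference between anterior and posterior cover, -10.4 and -7.77 percentage points, was 3.64 and 1.59 with the midpoint moved 10 kb towards the posterior end and 5.23 and 4.22 with regions at the floor alone. In HoxB and HoxD the direction of ELF3 was the same under all 4 alternatives tried. None of these left out the empty window ends, so a contrast between anterior and posterior genes was not tested.

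NFKB2 cover was 19.5% on the anterior and 4.40% on the posterior side of HoxB (10 and 4 regions). In HoxC it was 5.27% and 1.2% (4 and 3 regions); ELF3 cover had the opposite order there, but the same order as NFKB2 with the midpoint moved 10 kb posteriorly and at the floor alone. HoxA had 1.53% and 2.39% (3 regions on each side), and HoxD 0.394% and 2.56% (1 and 2 regions). Neither direction was stable: the difference in HoxA, -0.861 points, was 0.702 with the midpoint moved 10 kb posteriorly and 0.976 at −log10 q of 5 or more, and that in HoxD, -2.16 points, was 0.106 with the moved midpoint. With so few regions the intervals of the numbers on both sides overlapped in every cluster. Over all 4 clusters, 32 of 63 ELF3 regions (50.8%) and 18 of 30 NFKB2 regions (60%) lay on an anterior side.

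**Figure D3:**
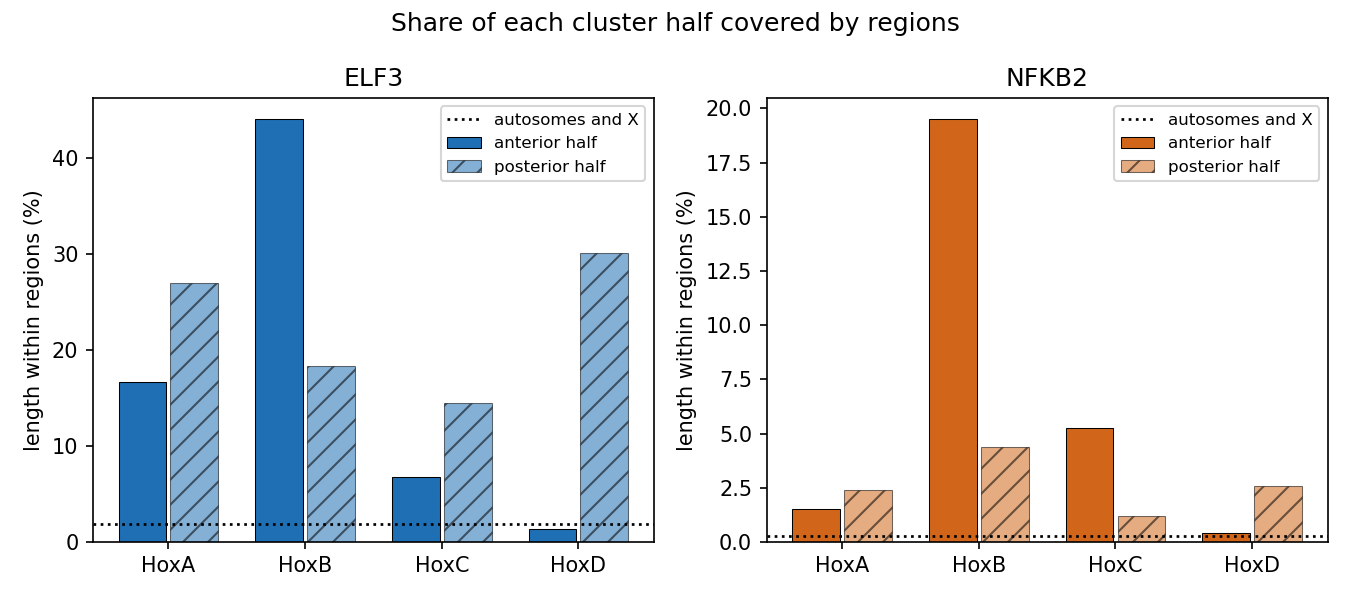
Share of the length of the anterior (solid) and posterior (hatched) side of each cluster that lies within regions (%), for ELF3 (left) and NFKB2 (right, another scale); the dotted line is the share of autosomes and X. ELF3 covers 44.1% of the anterior side of HoxB and 30.1% of the posterior side of HoxD.

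Almost all NFKB2 regions of the clusters overlapped an ELF3 region, 29 of 30 (96.7%, 82.8 to 99.9), close to the 96.8% of the whole list. The exception lay in HoxC at 102895821 to 102896057, with 14 fragments over a background of 3.05 times the floor. In the other direction 28 of 63 Hox ELF3 regions overlapped NFKB2 (44.4%, 31.9 to 57.5), against 19.7% of all ELF3 regions. With both lists at −log10 q of 10 or more the Hox share was 12.9%, and the share over all regions was not computed at that limit. The share was 61.9% in HoxB (13 of 21), 46.2% in HoxC (6 of 13), 33.3% in HoxA (6 of 18) and 27.3% in HoxD (3 of 11), with overlapping intervals. Width moved with this share. Among ELF3 regions of 2 kb or wider, 18 of 26 in the clusters (69.2%, 48.2 to 85.7) and 63.4% of all such regions overlapped NFKB2. Among narrower ones it was 10 of 37 (27.0%, 13.8 to 44.1) and 17.4%, so in each class the value for all regions fell inside the interval of the Hox regions. On the anterior side of HoxB, 10 of 11 ELF3 regions overlapped NFKB2, and on its posterior side 3 of 10. Of the 63 ELF3 regions 3 overlapped 2 or more NFKB2 regions, all in HoxB (4.76%, against 0.479% of all). The region of 11245 bp overlapped 3, of which the widest began outside it and also overlapped the neighbouring ELF3 region.

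For each of the 29 shared NFKB2 regions, the fragments at its summit were divided by those of the overlapping ELF3 region (the one with most fragments, where there were 2 or more) and by the depth ratio of 1.11. By the ratio alone, without regard to its interval, NFKB2 was lower than ELF3 in 28 of 29 pairs and higher in 1 (3.45%), against 4.95% of all 13769 shared pairs. The median ratio of NFKB2 to ELF3 was 0.624, and 9 pairs were more than 2-fold lower (31%), against a median of 0.365 and 71.8% over all pairs. In Hox pairs with summits within 100 bp the median was 0.528, and it was not computed for all such pairs. Close summits were less frequent in the clusters, as given below, so the 2 sets of pairs are not alike. The ELF3 count is the divisor of this ratio, and at the floor NFKB2 regions under 8 fragments are not listed. A lower ratio at higher ELF3 counts is thus at least partly built in, and pairs were compared within classes of ELF3 fragments. In pairs with 16 to 30 ELF3 fragments the median was 0.619 in the clusters (16 pairs) and 0.541 in all. In pairs with 31 to 44 it was 0.323 (5 pairs) and 0.383, and in pairs with 6 to 15 it was 0.660 (8 pairs) and 0.901. Within these classes the clusters thus stood on both sides of the whole list.

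Single pairs showed the range. The lowest ratio, 0.205 (0.0919 to 0.413), was that of the strongest ELF3 region in HoxD, with 10 NFKB2 and 44 ELF3 fragments and summits 2 bp apart. In HoxC the range was widest. NFKB2 had 13 fragments and ELF3 38 at 102874990 to 102875281 (0.308, 0.151 to 0.592), and 18 against 8 at 102913841 to 102914458 (2.03, 0.839 to 5.39). The latter was the only pair with a ratio above 1, and its interval included equality. Most pairs with a lower ratio had intervals that included equality too, such as 0.901 (0.317 to 2.56) at 102884407 to 102884827. By deposited folds the ratio was above 1 in these 2 HoxC pairs (1.58 and 1.67) and at 52206186 to 52206908 in HoxA (1.19). In HoxA the ratios went from 0.323 (14 and 39 fragments, at 52135240 to 52135851) to 0.737 (9 and 11, at 52173994 to 52174436). In HoxB they went from 0.36 (12 and 30, for both NFKB2 regions overlapping 96167525 to 96173394) to 0.732 (13 and 16, at 96233690 to 96235187). The highest ratio in HoxD was 0.801 (16 and 18, at 74569069 to 74569334). Summits were within 100 bp of each other in 15 of 29 pairs (51.7%), against 75.5% of all pairs, and the largest distance was 4564 bp, in a wide ELF3 region of HoxA.

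**Figure D4:**
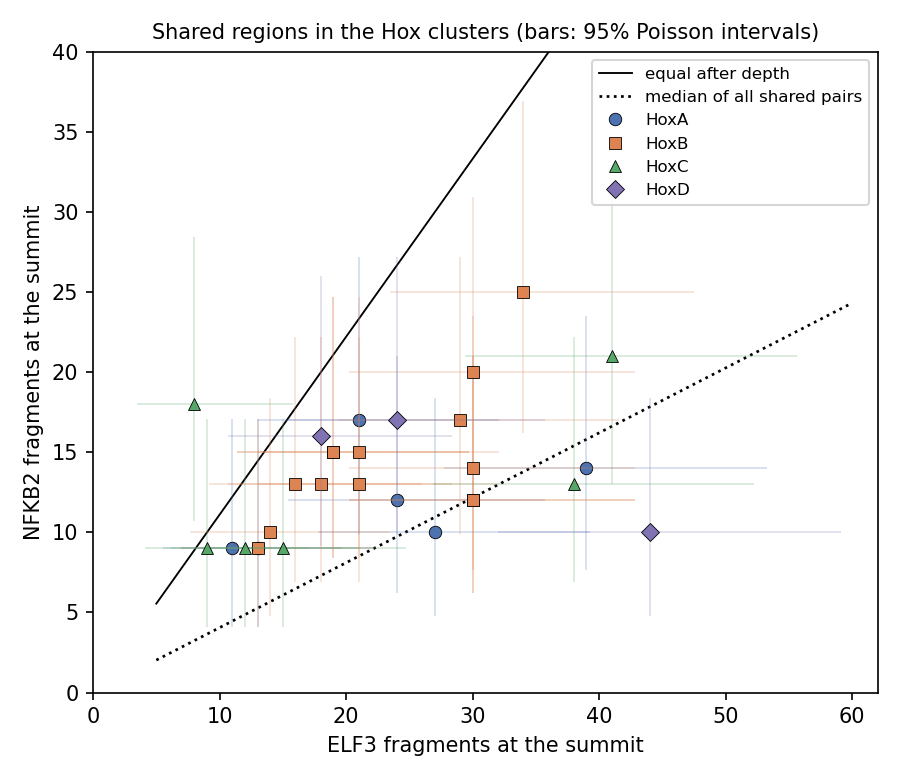
Fragments at the summit of NFKB2 (vertical) and ELF3 (horizontal) in the 29 shared pairs, by cluster, with 95% Poisson intervals; the solid line marks equal signal after adjustment for depth and the dotted line the median ratio of all shared pairs, 0.365. One HoxC pair, with 18 NFKB2 and 8 ELF3 fragments, lies above the solid line.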

How the data were processed

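CUT&RUN regions of 1 ELF3 and 1 NFKB2 library were used as deposited by the authors, each library being its own group by its label. MACS2 is the peak caller named in the submitters' processing notes; the sources used here do not give its settings, the aligner or the filters. The notes name mm10, but the files hold sequence names of GRCm39, so coordinates are printed as deposited, 1-based, and joined to no table of another build. An IgG list was not analysed here. Each deposited region has a score, 10 times its −log10 q, a fold or ratio of the summit over the local background, with 1 added to both, and summit values of −log10 p and q. The lowest −log10 q was 1.02 (ELF3) and 1.01 (NFKB2).

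Fragments were recovered as the whole number that gives the fold and the Poisson −log10 p within 0.01; this succeeded for 68318 of 68319 and 14208 of 14217 regions, and was tested on simulated data. A fragment was worth 1.00 and 0.964. The lowest background, the floor, was 1.22 and 1.36 fragments; their ratio, 1.11, was taken as the depth ratio. The fewest fragments at the floor were 6 and 8. Regions were shared at an overlap of at least 1 bp. Intervals (95%) are exact: Clopper-Pearson for shares, Poisson for counts, binomial for ratios. Python 3.11.15 with scipy 1.17.1 was used.

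The text names, per cluster and library, the 2 regions of most fragments and the widest region, the highest and lowest ratio per cluster, and NFKB2 regions without ELF3. The clusters, rules and limits were chosen with earlier results of these data known, and the width limit of 2 kb, the bins and the promoters printed after the values were seen. Planned analyses of gene starts, of motifs at summits and of the gene span need a genome or annotation of GRCm39 and were not run.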

Additional observations from a re-analysis of the deposited data

How the results depend on the processing

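Counts, cover and ratios were taken as unchanged within 1.5 times and shares within their 95% interval; by this, 39 of 59 values over the 4 clusters were unchanged, and 20 moved. Stricter limits leave fewer regions by construction. At −log10 q of 10 or more, 31 ELF3 and 3 NFKB2 regions remained, with 13.8% and 1.41% cover, against 1.41% and 0.133% of autosomes and X. At 5 or more, 14 NFKB2 regions remained. Of ELF3 regions, 23.8% had an NFKB2 summit within 100 bp, and at −log10 q of at least 5 or 10 the share overlapping NFKB2 was 31.2% or 12.9%. The share of NFKB2 regions on ELF3 was 80.0% with 50% of the shorter region, 50% by summits, 100% at −log10 q of 10 or more and 80.0% with both lists at the floor. The same shares over all regions were not computed under these settings, so whether the clusters differ from the whole list there is not known. The floor left 40 ELF3 regions and 10.4% ELF3 cover. Without HoxB, NFKB2 cover was 2.25% and its share of regions of 2 kb or wider 6.25%. With HoxB kept, that share was 42.9% at −log10 q of 5 or more, against 2.40% over autosomes and X. A limit of 5 kb gave 11.1% of ELF3 and 3.33% of NFKB2 regions, against 0.300% and 0.134%. Of NFKB2 regions at −log10 q of 5 or more, 78.6% were anterior. Settings with the floor, without HoxB, without the depth adjustment or with other width limits were chosen after the data were seen.

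For single clusters, 66 of 112 values were unchanged, 39 moved and 7 differences of anterior minus posterior cover changed sign. With the midpoint moved 10 kb towards the posterior end these were 3.64 (HoxA) and 1.59 (HoxC) points for ELF3 and 0.702 (HoxA) and 0.106 (HoxD) for NFKB2. At the floor they were 5.23 (HoxA) and 4.22 (HoxC) for ELF3, and at −log10 q of 5 or more 0.976 for NFKB2 in HoxA. The cause was not tested. No paired analysis was possible because each antibody has 1 library. At the floor, regions under 6 ELF3 or 8 NFKB2 fragments are not listed, and where the background is raised more are needed, so a gap does not show an absence of binding.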
